A study of Mus musculus with 6 samples.

Results

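The state described here is that of macrophage-like cells derived from THP-1, a human line of acute monocytic leukaemia, as they stood in the control arm of a melittin experiment. It is read from the 3 control libraries of a series of 6, chosen by their label (NC, replicates 1, 2 and 3). Per the series' design text, the cells lay below the membrane of a Transwell insert, which lets soluble factors pass between chambers, and were given the phorbol ester PMA at 100 ng/ml for 48 h. The other 3 libraries, from cells under tumour cells and melittin, are not used here. What was added to the control wells after PMA, and whether their upper chamber held tumour cells, is not stated in the labels. THP-1 is a single leukaemic line, so its levels are those of this line and not of macrophages of a donor. The organism is labelled as mouse, but 20036 of 20036 gene identifiers are human and 0 are mouse. Nothing in the labels says that the 3 libraries came from separate cultures, so the SD given with each level, and each p-value, measures no more than how these 3 libraries scatter, which may be technical.

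PMA activates protein kinase C, and THP-1 cells treated with it stop dividing, attach and take on features of macrophages. Macrophages are cells of the myeloid lineage that sense microbes and tissue damage through surface receptors, send signals as cytokines and chemokines, and digest or remodel their surroundings with proteases. Their identity is set by transcription factors such as PU.1 (encoded by SPI1) and the C/EBP and MAF families, and their metabolism leans on glycolysis, lipid handling and iron storage.

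Control replicate 1 held 18756654 counts, replicate 2 19597781 and replicate 3 16001423, and a library detected between 14257 and 14440 of 20036 genes with 1 count or more. Levels are given in FPKM, fragments per kilobase of gene scaled to a fixed number of counts per library. Each level is a mean ± SD over the 3 libraries (n = 3). The scaling uses 1 listed length per gene, and how that length was defined could not be checked. The order of levels between genes therefore depends on it. ITGA5 and ITGB1, for example, had 83027 and 75897 counts over the 3 libraries, at listed lengths of 7383 and 14561 bases. Their mean levels were 207 and 95.9 FPKM. Of all genes, 4699 (23.5%) had 0 counts in every library, 6067 had a mean above 0 but below 1 FPKM, 5639 lay from 1 to 10, 3328 from 10 to 100, and 303 (1.51%) at 100 FPKM or more. These classes are used throughout: "at least 1 FPKM" covers 46.3% of all genes, whose median was 0.627 FPKM. Where a gene had 0 counts, the limit given is the level that 3 counts over the 3 libraries together would make, and it covers counting error only. A count of 0 need not mean absence, since reads of genes that overlap may have been left out. Of the 2767 genes that share part of their span and their strand with a listed gene, 35.5% were at 0. Of the others 21.5% were, and the cause of this difference was not tested. Since RNA came from whole wells, fewer cells with a transcript and less of it per cell cannot be told apart.

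The 3 libraries lay close together. Across all genes, which are not independent replicates, Pearson's r of log2(FPKM + 1) was between 0.9989 and 0.9990 for the 3 pairs of libraries, and Spearman's rho between 0.984 and 0.985. Among the 9270 genes at 1 FPKM or more, the CV between replicates (SD over mean) had a median of 3.81%. It was below 5% in 63.1% of these genes and above 20% in 126 of them (1.36%). The median CV depended on the level. It was 17.8% from 0.1 to 1 FPKM, 5.29% from 1 to 10, 2.48% from 10 to 100, 1.29% from 100 to 1000 and 0.97% above that. Below 0.1 FPKM, where the median gene had 4.0 counts over the 3 libraries, it was 90.7%, and no order of levels can be read there. The biological coefficient of variation, the spread left after counting noise, was 2.05% by edgeR.

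Few single genes were called as differing between the replicates by more than counting noise. Ribosomal and mitochondrial genes were frequent among those with the largest chi-square, a measure that grows with the counts. A chi-square test of the 3 counts against the scaled library sizes, with Benjamini-Hochberg adjustment, called 237 of 12348 genes (1.92%), of which 192 were at 1 FPKM or more. With any 1 library left out the test called 77 to 109 genes. The mean chi-square per degree of freedom over all tested genes was 1.74, against 1 for pure counting noise, so the libraries were not copies of each other. At 1 FPKM or more, 1 called gene ranged over more than 2-fold between its highest and lowest library: CAVIN4, a caveolar coat protein of muscle, at 1.14, 1.5 and 0.706 FPKM. The share of called genes went with the counts behind them: 1.47% from 1 to 10 FPKM, 10.3% from 100 to 1000 and 42.9% of the 21 genes above that. Of the genes coding for ribosome structure in the table's Gene Ontology terms, 13 of 156 tested were called (8.33%). Of the 13 mitochondrially encoded genes 5 were (38.5%), namely MT-CO1, MT-CO2, MT-ND4, MT-ND1 and MT-ND3. Whether these shares exceed those of other genes with as many counts was not tested. Of the genes that the same terms class as DNA-binding transcription factors of RNA polymerase II, 14 of 800 tested were called, and of the transcription factor lists used here 0 of 169. Of the receptor lists 5 of 251 tested genes were called, among them C3AR1, AXL, KLRG1 and LY86.

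Among the 10 genes with the largest chi-square were RPS6, CSTB, MT-ND3, FTH1, MT-ND4, ACTB, RPL29, RPS27 and MT-ND1. RPS6, a protein of the small ribosomal subunit, stood at 474, 452 and 408 FPKM in replicates 1, 2 and 3, with replicate 3 the lowest and a chi-square per degree of freedom of 117. MT-ND3, a mitochondrial subunit of complex I, stood at 1761, 1513 and 1511 FPKM, with replicate 1 high and the others level with each other. CSTB, the cytosolic cathepsin inhibitor cystatin B, was lowest in replicate 2, at 101, 84 and 105 FPKM. The library that stood apart thus differed from gene to gene. FTH1 and the ribosomal protein genes have close copies elsewhere in the genome, so their reads cannot be assigned with certainty.

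**Figure D1:**
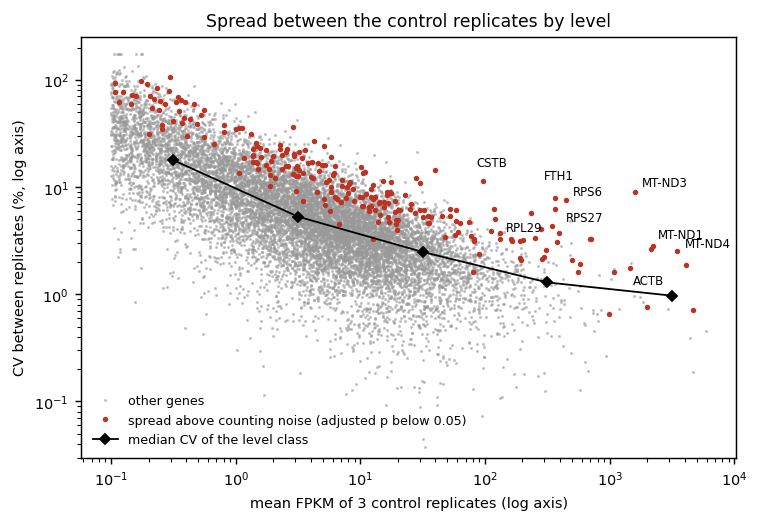
CV between the 3 control replicates (%, log axis) against mean FPKM (log axis) for every gene at 0.1 FPKM or more. Red points are genes whose spread exceeded counting noise, grey points the others, and black diamonds the median of each level class, which falls from 17.8% to 0.97% from left to right.

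A chemokine, an actin regulator and a cytokine stood among the mitochondrial genes at the top of the ranking. CXCL8, which encodes the neutrophil attractant interleukin-8, was the most abundant transcript per length, at 5952, 5993 and 6002 FPKM in replicates 1, 2 and 3. CAP1, an actin-binding regulator of filament turnover, ranked 3 of 20036 genes at 4645, 4649 and 4632 FPKM. IL1B, the inflammatory cytokine interleukin-1 beta, ranked 4 at 4446, 4424 and 4459 FPKM. The 15 most abundant genes further held 8 mitochondrially encoded genes, FTL (ferritin light chain, 2954 ± 21.7 FPKM), TMSB10 (an actin-monomer binding thymosin, 2216 ± 62.5 FPKM), YBX1 (an RNA-binding protein, 1994 ± 15.1 FPKM) and B2M (the shared light chain of class I molecules, 1845 ± 15.6 FPKM). In every library the 10 genes with the most counts took 9.3 to 9.32% of the counts and the mitochondrial chromosome 2.65 to 2.7%. For CXCL8, CAP1 and IL1B the CV between replicates was 0.45, 0.189 and 0.394%.

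The label of a macrophage-like state was checked against markers. Of 49 monocyte and macrophage markers, 35 were at 1 FPKM or more, 13 lay below it and 1 had 0 counts, and their median was 6.07 FPKM against 0.627 over all genes. The highest were SPP1 (osteopontin, 789 ± 5.19 FPKM), CHI3L1 (a secreted chitinase-like protein, 747 ± 3.38 FPKM) and FCER1G (the common Fc receptor gamma chain, 406 ± 11.4 FPKM). CSF1R, through which macrophage colony-stimulating factor acts, stood at 153, 149 and 153 FPKM, CD14, the lipopolysaccharide co-receptor, at 113, 116 and 113 FPKM and ITGAX (CD11c) at 64.5, 63.1 and 63.8 FPKM. These values varied between replicates by 1.35, 1.29 and 1.15%. Lower were PTPRC (the pan-leukocyte phosphatase CD45, 15.6 ± 0.26 FPKM), ITGAM (CD11b, 6.85 ± 0.241 FPKM), CX3CR1 (the fractalkine receptor, 5.24 ± 0.217 FPKM), APOE (3.67 ± 0.142 FPKM) and LYZ (lysozyme, 2.7 ± 0.477 FPKM).

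Several widely used markers were at or near 0. MRC1, the mannose receptor CD206, had 8, 6 and 3 counts, FCGR3A (CD16) 1, 1 and 0 counts and CCR2, the receptor of the monocyte attractant CCL2, 0, 3 and 0 counts in replicates 1, 2 and 3. The C1q genes C1QA, C1QB and C1QC had 2, 1 and 9 counts over the 3 libraries, and ADGRE1, the human counterpart of mouse F4/80, had 10. CD68, a lysosomal glycoprotein used to stain macrophages, had 0 counts in all 3, which allows up to 0.0255 FPKM. It shares no stretch of its strand with a listed gene, and whether its 0 comes from the counting was not tested.

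Markers of most other cell types were low. Of 10 T cell markers 0 reached 1 FPKM and 5 had 0 counts, among them CD3D, CD8A and LCK, and the whole list summed to 0.0706 to 0.149 FPKM in the 3 libraries. The 7 B cell markers summed to 0.183 to 0.37 and the 6 mast cell and basophil markers to 0.184 to 0.282 FPKM, also with no member at 1. Of 12 epithelial markers only CLDN7, a tight junction claudin, reached 1 FPKM (1.63 ± 0.183 FPKM), while EPCAM, KRT18 and KRT19 were at 0 and CDH1 had 1 count. The epithelial list summed to 1.59 to 1.97 FPKM. Of 10 prostate epithelial markers 3 reached 1 FPKM and 3 had 0 counts; the defining KLK2, KLK3 and TMPRSS2 were at 0, and ACP3 (prostatic acid phosphatase) stood at 3.14 ± 0.262 FPKM.

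Some single markers of other lineages were high within lists that were otherwise low. MMP8, neutrophil collagenase, stood at 329, 328 and 333 FPKM, while MPO had 1 count, ELANE 0.356 ± 0.145 FPKM, and 8 of 17 neutrophil genes had 0. The neutrophil list summed to 329 to 334 FPKM, nearly all of it MMP8. Among natural killer genes (summed 14.5 to 15.5 FPKM) GNLY, the granule protein granulysin, stood at 10.5 ± 0.67 FPKM and NKG7 at 3.8 ± 0.529 FPKM, with PRF1 (perforin) at 1 count. PECAM1 (CD31), carried by endothelium and by myeloid cells, stood at 40.3 ± 0.651 FPKM, while CDH5 had 4 and KDR 6 counts, in a fibroblast and endothelial list that summed to 46.6 to 48 FPKM. The platelet chemokine PPBP stood at 7.14 ± 1.04 FPKM with PF4, GP9 and the listed globin genes HBA1, HBA2, HBB, HBG1 and HBG2 at 0, in a list of 6.26 to 8.31 FPKM. Of the dendritic cell list (8.27 to 8.8 FPKM), the lipid-presenting CD1C, CD1A and CD1E lay between 1 and 3 FPKM and CLEC9A, CLEC10A, CLEC4C and FCER1A were at 0. The part of other cells in any level above was not tested.

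Surface receptors of innate sensing were present in a selective pattern. Over all 418 genes of the receptor lists, 178 were at 1 FPKM or more, 10 at 100 or more, and 70 at 0 counts. Of the Toll-like receptors, which detect microbial products, TLR2 was by far the highest, at 91.4, 92.3 and 90.6 FPKM. Its partners TLR1 (10.4 ± 0.81 FPKM) and TLR6 (3.24 ± 0.12 FPKM) and the lipopolysaccharide receptor TLR4 (2.95 ± 0.216 FPKM) were lower. The co-receptor CD14 exceeded TLR4 per length in every library, as did LY96, the MD-2 subunit of the TLR4 complex, at 16.2 ± 2.79 FPKM. TLR4 shares strand and part of its span with a listed gene, so its level is uncertain. Of the endosomal nucleic acid sensors, TLR8 stood at 0.756 ± 0.133 FPKM, TLR7 at 0.615 ± 0.0972 FPKM, TLR3 at 25 and TLR9 at 0 counts, although their chaperone UNC93B1 stood at 33.7 ± 1.64 FPKM. The flagellin receptor TLR5 had 7 counts.

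Among Fc receptors, which bind antibodies, the signalling chain FCER1G was far above every ligand-binding chain of the list. Next to FCER1G at 397, 419 and 403 FPKM, the high-affinity IgG receptor FCGR1A stood at 3.36, 3.53 and 2.46 FPKM, FCAR, the IgA receptor, at 3.64 ± 0.353 FPKM and FCGR2A at 0.814 ± 0.0987 FPKM. The neonatal Fc receptor FCGRT, which recycles IgG, stood at 45.8 ± 1.59 FPKM and the cytosolic antibody receptor TRIM21 at 28.8 ± 1.1 FPKM. TYROBP (DAP12), the other main adaptor of activating myeloid receptors, stood at 118, 116 and 114 FPKM. Receptors that pair with it were unequal: TREM2, a lipid-sensing receptor, stood at 44.7 ± 2.6 FPKM and the lectin CLEC5A at 81.5 ± 0.914 FPKM, but TREM1 at 0.189 ± 0.0192 FPKM. The division of reads between the FCGR2 genes is uncertain, since they are close copies.

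Receptors for uptake were led by lysosomal and modified-lipid scavengers. SCARB2, which delivers an enzyme to lysosomes, stood at 31.5 ± 0.50 FPKM, MSR1 (scavenger receptor A) at 29.7, 30.2 and 29.9 FPKM, CD163, the haemoglobin-haptoglobin receptor, at 14, 13.7 and 15.1 FPKM, and the fatty acid receptor CD36 at 6.07 ± 0.234 FPKM. MARCO stood at 2.19 ± 0.223 FPKM, STAB1 had 44 counts, and SCARA3 and SCARA5 were at 0. MERTK, a receptor for dying cells, stood at 12.7 ± 0.596 FPKM, while its relative AXL had 20 counts. Of 42 genes of the C-type lectin family, 7 were at 1 FPKM or more and 17 at 0. CLEC5A was the highest, followed by the secreted growth factor CLEC11A (46 ± 1.81 FPKM) and the collagen receptor MRC2 (17 ± 0.343 FPKM), a relative of the near-silent MRC1. CLEC7A (dectin-1), the beta-glucan receptor, and CD209 (DC-SIGN) stood at 2.18 ± 0.207 FPKM and 2.35 ± 0.291 FPKM, which do not differ beyond their spread.

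Inhibitory and checkpoint receptors were mostly at low to middle levels. SIRPA, the receptor of the "do not eat me" signal CD47, stood at 57 ± 0.449 FPKM and CD47 itself at 14.4 ± 0.305 FPKM. Of 26 LILR and Siglec genes 11 were at 1 FPKM or more and 0 at 10, with LILRB4 (8.38 ± 0.0469 FPKM), SIGLEC15 (7.65 ± 0.758 FPKM) and CD33 (6.34 ± 0.278 FPKM) the highest. SIGLEC15 and LILRB4 overlapped within their spread. Among ligands of T cell receptors, CD276 (B7-H3) stood at 51.3, 51.5 and 51.2 FPKM, against 0.584, 0.41 and 0.806 FPKM for CD274 (PD-L1) and 1.91 ± 0.124 FPKM for PDCD1LG2 (PD-L2). The co-stimulatory ligands CD86 and CD80 stood at 1.26 ± 0.0584 FPKM and 0.109 ± 0.0122 FPKM. NT5E (CD73), the enzyme that makes adenosine from AMP, stood at 207, 207 and 207 FPKM, while ENTPD1 (CD39), which acts before it, stood at 0.268 ± 0.045 FPKM. CTLA4, PDCD1 and VTCN1 were at 0.

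The antigen-presenting molecules split by class. Of 19 genes of class I and peptide loading, 16 were at 1 FPKM or more, led by B2M (1833, 1839 and 1863 FPKM), HLA-E (164 ± 4.2 FPKM) and HLA-B (101 ± 1.16 FPKM). Of 15 class II genes, 2 were: CD74, the invariant chain, at 15.1, 15.6 and 16.5 FPKM, and HLA-DRB1 at 2.05 ± 0.105 FPKM. HLA-DRA, whose product pairs with that of HLA-DRB1, had 0, 3 and 0 counts, HLA-DPA1 3 and HLA-DPB1 0 over the 3 libraries. CIITA, the master activator of class II genes, had 33 counts. Class I and class II genes are highly variable between people, and reads of a line that differ from the reference can be lost or misassigned, so levels of single HLA genes are uncertain.

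Chemoattractant receptors were dominated by C5AR1. This receptor of the complement fragment C5a stood at 93.8, 97.1 and 95.6 FPKM, the other C5a receptor C5AR2 at 14.2 ± 0.411 FPKM and C3AR1 at 12.3 ± 1.18 FPKM. The oxysterol receptor GPR183 stood at 29.6 ± 0.672 FPKM and the leukotriene receptor CYSLTR1 at 16.7 ± 0.549 FPKM, while the formyl peptide receptors were low, with FPR1 at 0.108 ± 0.0117 FPKM and FPR2 at 2 counts. Of 23 chemokine receptors 6 were at 1 FPKM or more, with CXCR4 (14.2, 13.4 and 14.1 FPKM) and CCR1 (11.9, 12.7 and 13 FPKM) the highest. The lowest CXCR4 value lay above the highest CCR1 value. CXCR2, a receptor of interleukin-8, had 9 counts, and its relative CXCR1 had 0 counts, beside the high level of their ligand CXCL8.

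Interleukin and haematopoietin receptors were headed by CSF1R, described above, and the chains of the interferon-gamma receptor. IFNGR1 and IFNGR2 stood at 77.4 ± 0.474 FPKM and 58.3 ± 1.51 FPKM, and the interferon-alpha chain IFNAR1 at 22.2 ± 0.559 FPKM beside IFNAR2 at 0.25 ± 0.0418 FPKM, which shares strand and span with a listed gene. IL13RA1 (46.9 ± 0.472 FPKM) and IL4R (15.3 ± 0.27 FPKM) form the receptor of interleukins 4 and 13, and IL2RG, which joins IL4R in the alternative receptor, had 5 counts. IL6R (17.5 ± 0.265 FPKM) and its signalling chain IL6ST (9.57 ± 0.0679 FPKM) were both present, as was IL1R1 (19.9 ± 0.552 FPKM) with the decoy IL1R2 (5.43 ± 0.188 FPKM). Of the TNF receptors, TNFRSF1B (64.5 ± 0.907 FPKM) lay above TNFRSF1A (20.8 ± 0.253 FPKM), and CD40 at 3.91 ± 0.17 FPKM. ENG (endoglin, 41.4 ± 0.178 FPKM) and TGFBR1 (36.5 ± 0.752 FPKM) are a co-receptor and a receptor of transforming growth factor beta, and with MET (19.8 ± 0.553 FPKM), the receptor of hepatocyte growth factor, they headed the growth factor receptors.

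Adhesion receptors were widely present. Of 26 integrin chains 19 were at 1 FPKM or more. The leukocyte beta chain ITGB2 stood at 392, 389 and 387 FPKM, ITGA5, the alpha chain of the fibronectin receptor, at 209.6, 205 and 206 FPKM and its partner ITGB1 at 95.9 ± 0.329 FPKM. Of the alpha chains that pair with ITGB2, ITGAX exceeded ITGAL (8.61 ± 0.192 FPKM) and ITGAM in every library. Of the purinergic receptors, which sense extracellular nucleotides and adenosine, P2RX4 stood at 15.7 ± 0.358 FPKM, ADORA2B at 5.5 ± 0.707 FPKM and P2RX7 at 0.165 ± 0.0318 FPKM.

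**Figure D2:**
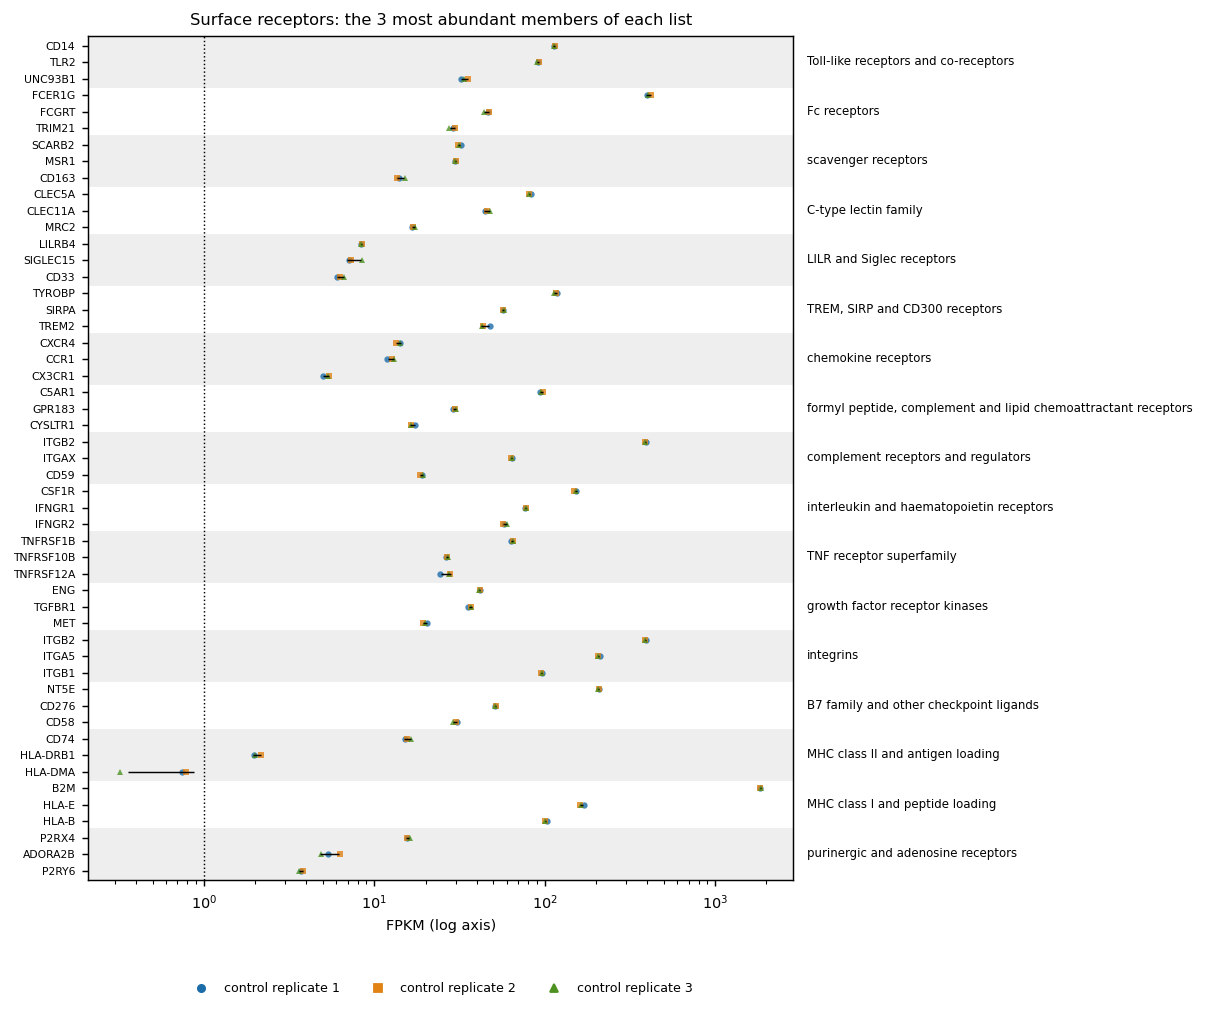
FPKM (log axis) of the 3 most abundant genes of each receptor list in each control replicate (symbols), with the mean ± SD as a black bar. The dotted line marks 1 FPKM. ITGB2 and FCER1G reach about the same level and only B2M lies above both, while HLA-DMA is the only plotted gene under 1 FPKM.

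The secreted cytokines spanned the whole range of the data. Of 17 CXC chemokines 10 were at 1 FPKM or more. Those that draw neutrophils were the most abundant: after CXCL8, CXCL5 stood at 342, 334 and 337 FPKM, and CXCL3 (60.6 ± 1.39 FPKM), CXCL1 (47.3 ± 1.99 FPKM) and CXCL2 (43.2 ± 2.5 FPKM) formed a lower group. CXCL10, a chemokine induced by interferon, stood at 15.1 ± 1.72 FPKM and its relative CXCL9 had 5 counts. CXCL1, CXCL2 and CXCL3 are close copies, so the division of reads among them is uncertain.

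Of 29 CC and other chemokines 11 were at 1 FPKM or more and 6 at 0. CCL20, the ligand of CCR6, stood at 1169.9, 1186 and 1183 FPKM, while CCR6 itself was at 0 counts. CCL2, the monocyte attractant, stood at 98.7, 93.9 and 98 FPKM and CCL5 at 53.1 ± 1.82 FPKM. CCL3L3 stood at 208 ± 5.02 FPKM and its near-identical copy CCL3 at 2.05 ± 0.204 FPKM, and CCL4L2 at 36.9 ± 1.23 FPKM beside CCL4 at 16.8 ± 0.825 FPKM, so within each pair only the sum can be read. CCL22 and CCL18, chemokines of alternatively activated macrophages, stood at 0.105 ± 0.0455 FPKM and 0.132 ± 0.0586 FPKM, and CCL17 was at 0. These were low beside CCL20 and CCL2 in every library.

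Few interleukins were present, and some of those were abundant. Of 42 interleukin genes 9 were at 1 FPKM or more and 16 at 0, and the highest were members of the interleukin-1 family. After IL1B came the receptor antagonist IL1RN (176, 179.9 and 174 FPKM) and IL1A (109, 113 and 115 FPKM). EBI3, a shared subunit of interleukins 27 and 35, stood at 37.1 ± 2.03 FPKM although its partner IL27 had 4 counts. IL6 stood at 0.0864, 0.0709 and 0.159 FPKM and IL10, the anti-inflammatory cytokine, had 5, 0 and 2 counts. IL12B was at 0, which allows up to 0.0179 FPKM, and IL12A, which encodes the other chain of interleukin-12, stood at 0.265 ± 0.19 FPKM. IL18 stood at 2.42 ± 0.192 FPKM.

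TNF stood at 87.2, 83.3 and 90.3 FPKM, and of 18 ligands of its family 11 were at 1 FPKM or more, next TNFSF15 (35.7 ± 0.896 FPKM) and TNFSF14 (16.3 ± 0.432 FPKM). All 22 interferon genes were below 1 FPKM: 20 had 0 counts, IFNB1 had 3 and IFNA21 1 over the 3 libraries. Among haematopoietic factors CSF1, the ligand of CSF1R, stood at 85.7, 86.4 and 88.3 FPKM and LIF at 32.6 ± 0.94 FPKM, while CSF2 and CSF3 lay at 0.287 ± 0.102 FPKM and 0.293 ± 0.0853 FPKM. The cells thus held transcripts of both CSF1 and its receptor. Growth factors were led by the EGF receptor ligands HBEGF (178, 183 and 178 FPKM) and AREG (183, 177 and 177 FPKM), which overlapped within their spread, then TGFB1 (149 ± 2.16 FPKM), GRN (progranulin, 108 ± 1.58 FPKM) and PDGFA (75.6 ± 0.915 FPKM). VEGFA, the vascular growth factor, stood at 59.2 ± 0.627 FPKM. HGF and IGF1 were at 0.

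Other secreted products followed. S100A11 (1087 ± 18.7 FPKM), LGALS1 (galectin-1, 692 ± 22.7 FPKM) and S100A6 (483 ± 11.3 FPKM) were high, whereas the myeloid alarmins S100A8 and S100A9, abundant in blood monocytes, stood at 1.58 ± 0.289 FPKM and 12.9 ± 1.22 FPKM. FN1 (fibronectin) stood at 218 ± 1.12 FPKM, LPL (lipoprotein lipase) at 307, 302 and 308 FPKM and the complement component C3 at 70.9 ± 0.822 FPKM. CFB, which encodes complement factor B, was at 0 counts.

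A few matrix metalloproteinases were the most abundant proteases of the lists, while the family as a whole was not high. Of 23 genes 11 were at 1 FPKM or more and 5 at 100 or more, and the median of 0.668 FPKM lay near the 0.627 FPKM of all genes. The share at 10 FPKM or more was 39.1%, against 60% of the 15 cathepsins and 18.1% of all genes. MMP14, a membrane-bound collagenase that activates pro-MMP2, stood at 675, 677 and 675 FPKM and MMP1, interstitial collagenase, at 630.0, 631 and 633 FPKM. MMP9 (gelatinase B) stood at 346, 352 and 347 FPKM, next to MMP8. MMP7 (matrilysin, 205 ± 1.7 FPKM) and MMP10 (stromelysin-2, 89.3 ± 2.11 FPKM) followed, and MMP12, macrophage elastase, stood at 19, 20.3 and 19.9 FPKM. MMP2, whose proenzyme MMP14 cuts, stood at 5.21 ± 0.217 FPKM. MMP20, MMP26 and MMP28 were at 0.

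The lysosomal cathepsins were led by 3 cysteine proteases at nearly the same level. CTSB stood at 129, 129 and 131 FPKM, CTSL at 123, 126 and 123 FPKM and CTSS at 119, 121 and 120.2 FPKM in replicates 1, 2 and 3. The aspartic protease CTSD stood at 29.1, 28.6 and 28 FPKM and CTSK, which cuts bone collagen, at 0.57 ± 0.143 FPKM. LGMN, which processes cathepsins, stood at 1.49 ± 0.135 FPKM. Serine proteases of granules were low, with 0 of 12 at 1 FPKM and 4 at 0. Of the caspases 10 of 12 were at 1 FPKM or more, with CASP1, which cuts pro-interleukin-1 beta, the highest at 26.8 ± 0.413 FPKM.

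Among the listed surface peptidases and convertases, ANPEP (CD13), an aminopeptidase, was the highest at 305, 305 and 304 FPKM. The plasminogen activator PLAU stood at 31.2 ± 1.46 FPKM and its receptor PLAUR at 105, 105 and 101 FPKM, and THBD (thrombomodulin), which turns thrombin to an anticoagulant role, at 125 ± 1.57 FPKM. FURIN, a convertase that activates pro-MMP14, stood at 53.9 ± 1.23 FPKM. The sheddases ADAM10 (24.7 ± 0.462 FPKM) and ADAM17 (18.9 ± 0.381 FPKM), which release membrane ligands such as TNF, were both present, and ADAM9 was the highest of its list at 27.5 ± 0.537 FPKM. Of 39 ADAM and ADAMTS genes, 10 were at 1 FPKM or more.

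Inhibitors were as uneven as the proteases. TIMP1, an inhibitor of most metalloproteinases, stood at 1063, 1097 and 1083 FPKM, against 4.62 ± 0.106 FPKM for TIMP2 and 16.1 ± 0.237 FPKM for TIMP3. A2M, the broad inhibitor alpha-2-macroglobulin, stood at 228, 234 and 231 FPKM and SERPINE2, an inhibitor of thrombin and urokinase, at 125 ± 0.539 FPKM. CSTB lay at 96.7 ± 11.1 FPKM and the secreted CST3 (cystatin C) at 14.6 ± 0.935 FPKM. SERPINB2, an inhibitor of urokinase, stood at 4.01 ± 0.261 FPKM, and SERPINB9, which blocks granzyme B, at 0. Of 71 inhibitor genes 23 were at 1 FPKM or more and 28 at 0.

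**Figure D3:**
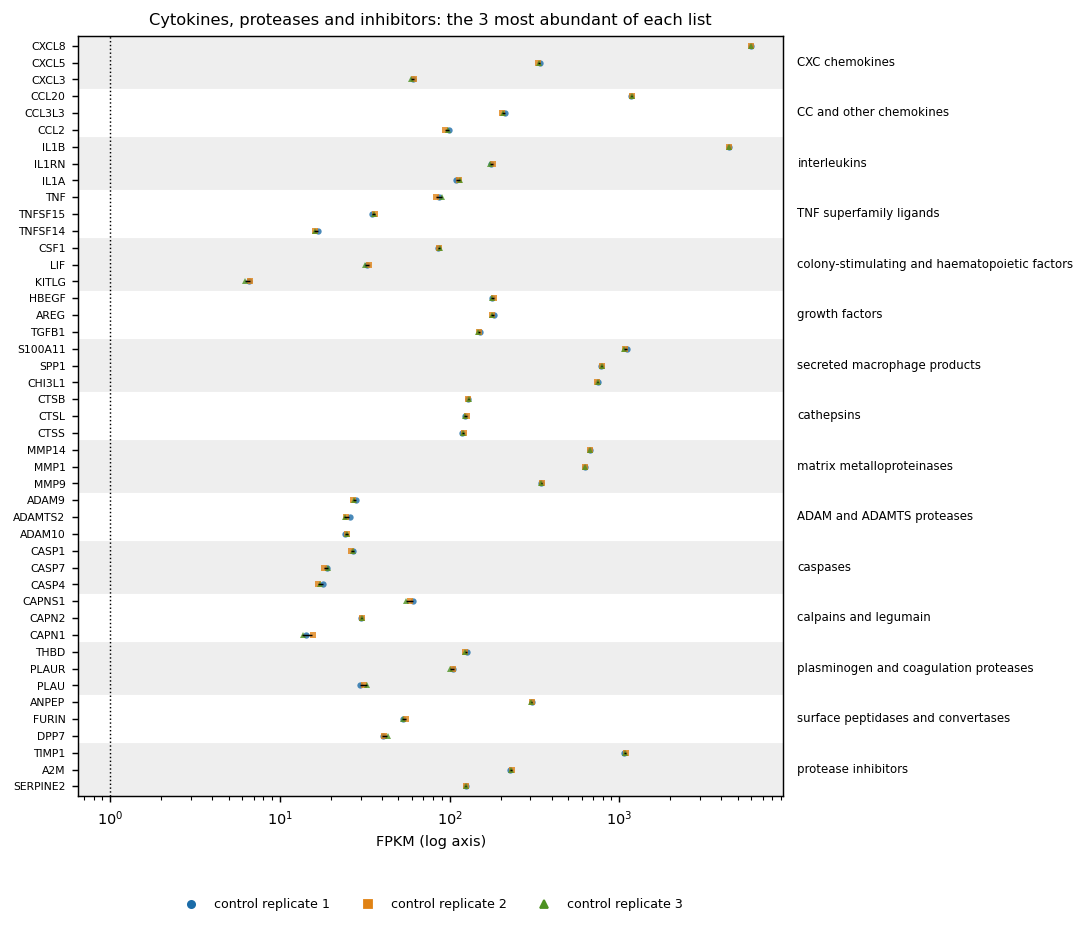
FPKM (log axis) of the 3 most abundant genes of each cytokine, protease and inhibitor list in each control replicate (symbols), with the mean ± SD as a black bar; lists without a gene at 1 FPKM are left out. CXCL8 and IL1B lie furthest right, and CCL20, S100A11 and TIMP1 are the other genes above 1000 FPKM.

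Many transcription factors were present, but few at a high level. Of 242 genes of the factor lists 135 were at 1 FPKM or more and 2 at 100 or more, with a median of 1.88 FPKM. Of all 1236 genes that the table's Gene Ontology terms class as DNA-binding transcription factors of RNA polymerase II, 525 (42.5%) were at 1 FPKM or more, against 46.3% of all genes, and 3 were at 100 or more, namely SPI1, ATF4 and RLF, a zinc finger gene of the CAP1 neighbourhood. SPI1, which encodes the myeloid master factor PU.1, stood at 150.2, 152 and 147 FPKM. CEBPB, a factor of monocyte and macrophage differentiation, stood at 97, 97.9 and 94.2 FPKM. Its relative CEBPA (2.3 ± 0.244 FPKM) was lower, as was MAF (7.26 ± 0.089 FPKM). IRF8, needed for monocyte development, stood at 1.78, 1.76 and 1.5 FPKM, and KLF4 at 5.11 ± 0.661 FPKM. SPIC, a factor of red pulp macrophages, was at 0, and GATA6 and SALL1, factors of peritoneal macrophages and microglia, stood at 0.245 ± 0.0609 FPKM and 0.299 ± 0.0204 FPKM.

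Most signal-responsive factors were present, with gaps in some families. All 12 NF-kB subunits and inhibitors were at 1 FPKM or more, with the inhibitors NFKBIA (57.6, 59.5 and 58.5 FPKM) and NFKBIE (37.2 ± 1.04 FPKM) above the subunits RELA (18.6 ± 0.501 FPKM), NFKB2 (17.6 ± 0.486 FPKM) and NFKB1 (6.12 ± 0.198 FPKM). Of 30 AP-1 and ATF factors 26 were, led by the stress factor ATF4 (144, 143 and 142 FPKM) and by XBP1, a factor of the unfolded protein response (54.6 ± 0.856 FPKM). JUN (28.2 ± 1.07 FPKM) and FOS (27.5 ± 0.693 FPKM), the partners in classical AP-1, overlapped within their spread. Of 16 IRF and STAT genes 12 were at 1 FPKM or more and 1 at 0. STAT6, which signals for interleukins 4 and 13, was the highest of the STAT and IRF genes at 68.1, 66.2 and 65.2 FPKM, against 22.5 ± 0.826 FPKM for STAT3. IRF4 had 0, 2 and 0 counts. HIF1A, the hypoxia factor, stood at 51.5, 49.7 and 48.7 FPKM and its relative EPAS1 (HIF-2 alpha) at 0.63 ± 0.0451 FPKM.

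Of the nuclear receptors, NR3C1 (the glucocorticoid receptor, 52.5, 51.9 and 52.6 FPKM) and PPARD (51.7, 49.8 and 51.4 FPKM) were highest, and the lowest NR3C1 value lay above the highest PPARD value. PPARG, the lipid-sensing factor of alveolar macrophages, stood at 4.54, 4.63 and 4.56 FPKM. THP-1 carries a fusion of KMT2A and MLLT3, a lesion known to raise HOXA9 and MEIS1 in leukaemia. In the control libraries HOXA9 stood at 2.07, 1.82 and 1.94 FPKM and MEIS1 had 0 counts, which allows up to 0.00504 FPKM. KMT2A and MLLT3 stood at 1.14 ± 0.0606 FPKM and 1.51 ± 0.101 FPKM, and gene counts do not separate the fusion from the normal transcripts. In this list of 61 genes LMO2 (36.3 ± 1.12 FPKM) was the highest, MYC stood at 14.7 ± 0.383 FPKM and MYB, a factor of dividing progenitors, at 0.208 ± 0.0613 FPKM. Many HOX genes overlap a neighbour on the same strand (24 of the 61 listed genes do), so low counts there are uncertain.

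Metabolic genes were widely present, with 211 of 277 listed genes (76.2%) at 1 FPKM or more and a median of 9.71 FPKM, against 46.3% and 0.627 FPKM over all genes. In glycolysis GAPDH stood at 619, 617 and 624 FPKM, PKM at 266, 266 and 266 FPKM, TPI1 at 179 ± 3.36 FPKM and LDHA at 169.6, 175 and 175 FPKM. Of the hexokinases, which trap glucose in the cell, HK2 (50.5, 50.4 and 52.3 FPKM) lay above HK1 (22.9 ± 1.0 FPKM) in every library. The glucose transporter SLC2A1 stood at 45.9 ± 0.0675 FPKM, the lactate exporter SLC16A3 at 24.3 ± 0.712 FPKM and LDHB, the other lactate dehydrogenase, had 9 counts. ALDOA (0.272 ± 0.114 FPKM) and SDHA (0.296 ± 0.00464 FPKM), both of use in nearly every cell, share strand and part of their span with a listed gene, as does LDHB, and whether their low values come from the counting was not tested.

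Most listed genes of pyruvate entry and the citrate cycle were present, with 29 of 32 at 1 FPKM or more. MPC1 (a mitochondrial pyruvate carrier, 70.5 ± 1.26 FPKM), SDHC (50.5 ± 1.37 FPKM) and ACLY (ATP citrate lyase, 50.2 ± 0.925 FPKM) were the highest. ACOD1, which makes itaconate in activated macrophages, stood at 0.123, 0.284 and 0.405 FPKM. Mitochondrially encoded genes ran from 28.4 ± 6.03 FPKM (MT-ATP8) to 4676 ± 33 FPKM (MT-CO1).

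Genes of sterol synthesis, fatty acid modification and lipid storage were present together. Of 23 cholesterol synthesis genes 22 were at 1 FPKM or more. SQLE, an oxygenase that commits squalene to sterols, stood at 565, 555 and 555 FPKM, INSIG1, which retains the sterol sensor SCAP in the endoplasmic reticulum, at 273, 276 and 272 FPKM and MSMO1 at 164 ± 2.21 FPKM. Of the efflux pumps ABCA1 stood at 29.9 ± 0.0265 FPKM and ABCG1 at 0.369 ± 0.0896 FPKM. Desaturation and elongation of fatty acids was represented by SCD (165 ± 0.873 FPKM), ELOVL1 (149 ± 3.91 FPKM) and ELOVL5 (148 ± 2.21 FPKM), the last 2 within their spread of each other. PLIN2, the coat protein of lipid droplets, stood at 84.3 ± 0.786 FPKM and LIPA, the lysosomal lipase, at 90.1 ± 1.02 FPKM.

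Of the enzymes used to tell macrophage states apart, most were low. NOS2 (inducible nitric oxide synthase) stood at 0.278, 0.133 and 0.0612 FPKM. It shares strand and part of its span with a listed gene, so its low level is uncertain. ARG1 (arginase) had 0, 1 and 2 counts and IDO1, which opens tryptophan breakdown, had 1, 1 and 4 counts. TDO2, the other enzyme of that step and best known from liver, stood at 276, 284 and 279.9 FPKM. Later enzymes of the kynurenine route, KYNU and KMO, stood at 12.8 ± 0.353 FPKM and 2.89 ± 0.0188 FPKM. SAT1, which breaks down polyamines, stood at 161 ± 5.25 FPKM. In eicosanoid synthesis ALOX5AP, the partner of 5-lipoxygenase, stood at 355, 331 and 358 FPKM, above ALOX5 itself (15.1 ± 0.961 FPKM), and the cyclooxygenases PTGS1 and PTGS2 at 44.8 ± 0.52 FPKM and 25.4 ± 0.087 FPKM.

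Iron storage, oxidant production and antioxidant defence were all represented. FTL stood at 2936, 2978 and 2947 FPKM and FTH1, the ferritin heavy chain, at 393, 355 and 337 FPKM, and the iron exporter SLC40A1 at 0.592 ± 0.15 FPKM. Of the phagocyte NADPH oxidase, the membrane chains CYBA (51.8 ± 1.34 FPKM) and CYBB (28.4 ± 0.594 FPKM) and the cytosolic NCF1 (52.7 ± 2.83 FPKM) and NCF4 (15.6 ± 0.141 FPKM) were present, while NOX4 and NOX5 were at 0. NCF1 has near-identical pseudogenes, so its level is uncertain. Of 22 glutathione and thioredoxin genes 19 were at 1 FPKM or more, led by PRDX1 (122 ± 3.66 FPKM), GPX4 (99.7 ± 1.51 FPKM) and TXN (94.6 ± 2.85 FPKM).

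**Figure D4:**
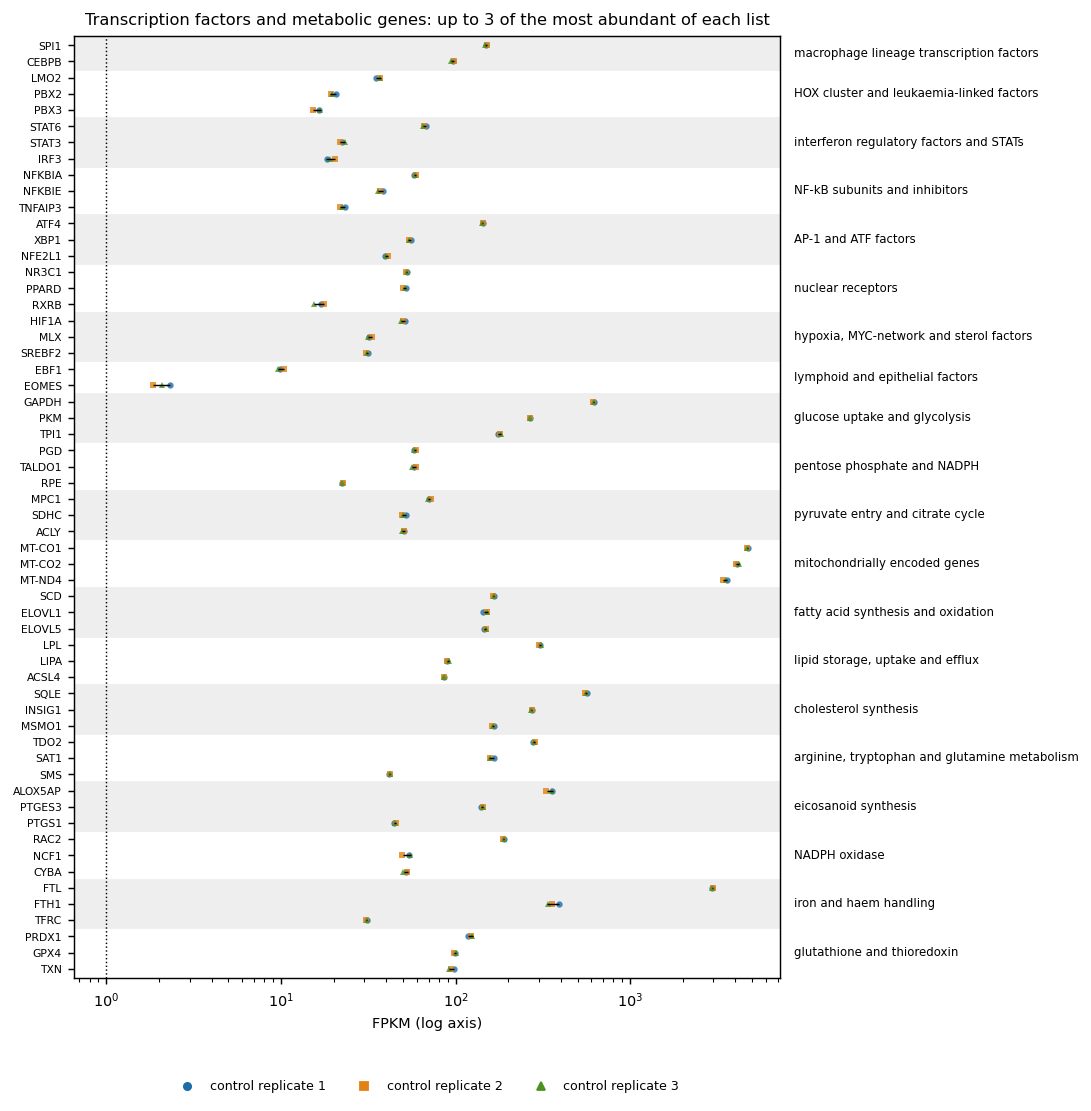
FPKM (log axis) of up to 3 of the most abundant genes of each transcription factor and metabolic list in each control replicate (symbols), with the mean ± SD as a black bar. Among the factors shown only SPI1 and ATF4 lie above 100 FPKM, whereas MT-CO1, MT-CO2, MT-ND4 and FTL lie above 1000.

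Most genes of division were present at low to middle levels. Of 22 proliferation genes 19 were at 1 FPKM or more with a median of 2.7 FPKM, above the 0.627 FPKM of all genes, led by the replication factors PCNA (19.6 ± 0.947 FPKM), MCM3 (14.5 ± 0.87 FPKM) and MCM7 (11.2 ± 0.574 FPKM), while MKI67 stood at 1.32, 1.24 and 1.28 FPKM and the mitotic kinase AURKB at 0.347 ± 0.0546 FPKM. CDKN1A, which encodes the cell cycle inhibitor p21, stood at 387, 379.8 and 381 FPKM, and CCND1 (cyclin D1) at 135 ± 1.93 FPKM. Of 15 common reference genes 14 were at 1 FPKM or more, and SDHA was the exception. Replicates of TBP (4.92, 5.26 and 5.5 FPKM) and PPIA (198, 195 and 193 FPKM) lay within a CV of 5.55 and 1.31%, and those of ACTB within 1.75%, although ACTB was among the 10 genes of largest chi-square.

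Position in the genome, which played no part in the lists, singled out a stretch of chromosome 1 after the values had been seen. CAP1 (GRCh38, chromosome 1, 40040233 to 40072649, plus strand) lies among neighbours that were also high. PPT1, a lysosomal thioesterase on the minus strand (40072710 to 40097260), stood at 736, 728 and 737 FPKM. ZMPSTE24, the protease that processes lamin A, stood at 635, 637 and 641 FPKM, and SMAP2, a regulator of vesicle transport, at 845, 854 and 842 FPKM. MFSD2A (a lipid transporter, 224 ± 4.46 FPKM), RLF (a zinc finger protein, 142 ± 1.14 FPKM) and NDUFS5 (a subunit of complex I, 192 ± 3.6 FPKM) are in the same stretch. From AKIRIN1 to NFYC (38991276 to 40771603) there are 27 genes, of which 23 were at 1 FPKM or more and 7 at 100 or more, a class that holds 1.51% of all genes. The stretch took 3.07, 3.07 and 3.07% of all counts in replicates 1, 2 and 3. CAP1 alone, the gene with the most counts in every library, took 1.77, 1.77 and 1.77%.

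Along all chromosomes, the median level of 15 adjacent genes with at least 1 count was computed in 14985 overlapping windows. The highest median, 41.8 FPKM, was that of the window from MYCL to NFYC, and the next window that did not overlap it, on chromosome 5 from HNRNPH1 to MGAT1, reached 24.2 FPKM. Over all windows the median was 2.29 FPKM, and the 99th percentile was 13.6. Not every gene of the stretch was high: MYCL, a relative of MYC, stood at 5.14 ± 0.137 FPKM and COL9A2, a collagen chain, at 9.49 ± 0.802 FPKM. Lower still were TMCO2 (1.15 ± 0.287 FPKM) and HEYL, NT5C1A, HPCAL4 and OXCT2, at means of 0.279, 0.536, 0.412 and 0.506 FPKM. OXCT2 shares strand and part of its span with a listed gene. YBX1 lies further along the same chromosome arm. Windows on chromosome 11 around the metalloproteinase genes, from BIRC3 to CASP4, and on chromosome 4 around the CXC chemokine genes, from ALB to PARM1, also stood among the first 10, at 17.3 and 17.1 FPKM.

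**Figure D5:**
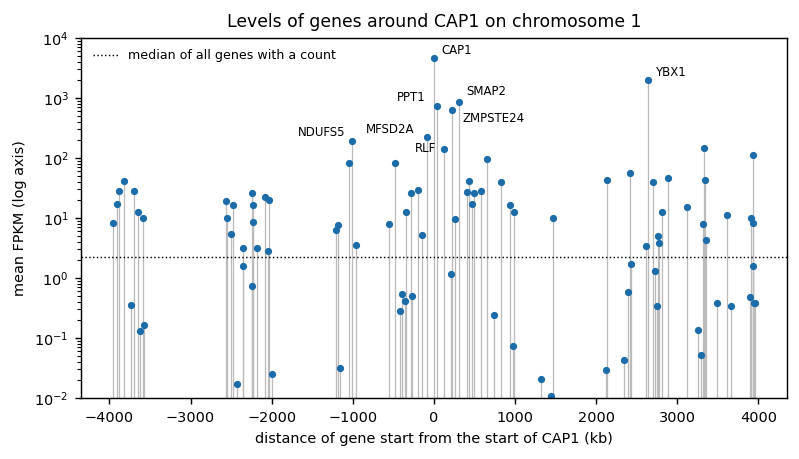
Mean FPKM of the 3 control replicates (log axis) for genes with at least 1 count, by the distance of their start from the start of CAP1 (kb). Start here means the lower coordinate, on either strand. CAP1, SMAP2, PPT1 and ZMPSTE24 form the peak at the centre, YBX1 stands alone to the right, and the dotted line is the median of all genes with a count (2.21 FPKM).

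A stretch of chromosome 9 around CDKN2A, which encodes the cell cycle inhibitors p16 and p14ARF, showed the opposite. Its bounds were set by hand, and no search for low stretches was made, since the windows above held only genes with a count. Of all genes, 23.5% were at 0 counts. From MLLT3 to ELAVL2 there are 25 genes, 18 of them at 0 counts. Most of these are interferon genes, which are silent in resting cells of many kinds, but KLHL9, an adaptor of a ubiquitin ligase, and MTAP, an enzyme of methionine salvage, were at 0 too, which allows up to 0.00962 and 0.0038 FPKM. CDKN2A and CDKN2B were at 0, with limits of 0.0142 and 0.0138 FPKM. On either side FOCAD stood at 5.94 ± 0.256 FPKM, HACD4 at 4.37 ± 0.307 FPKM, DMRTA1 at 0.116 ± 0.0354 FPKM and ELAVL2 at 1.87 ± 0.106 FPKM. KLHL9, MTAP, CDKN2A and CDKN2B share no stretch of their strand with a listed gene. CDKN2C and CDKN2D, their relatives elsewhere in the genome, stood at 3.51 ± 0.159 FPKM and 4.95 ± 0.368 FPKM.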

How the data were processed

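RNA of 3 control THP-1 libraries was used. Extraction used chloroform and library preparation a NEBNext Ultra II RNA kit, per the labels' protocols. The build was GRCh38, per the submitters' processing notes. An aligner, counter, strand setting and annotation are likewise not given in the sources used here. Raw read counts per gene, the gene length and FPKM stand in the deposited table. The authors' FPKM equal count over length and library total, within a relative deviation of 6.39e-09. Another deposited table repeats the FPKM, within 4.95e-07. The reference at hand was of mouse and was not used.

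Replicate spread was tested per gene with a chi-square test (2 degrees of freedom) of the counts against TMM-scaled library sizes, for genes that reached 20 counts over the libraries, adjusted by Benjamini-Hochberg, with calls below 0.05. TMM and the biological coefficient of variation came from edgeR 4.0.16 in R 4.3.3, with size factors of DESeq2 1.42.0 as an alternative, and the chi-square test from scipy 1.17.1. A single count was worth 0.051 to 0.0625 CPM. Steps were tested on simulated data.

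69 gene lists covering 1510 genes were set from general knowledge, or as whole families by symbol (2 names unmatched). The lists were chosen with earlier results of these data known. Genes are named as the 3 highest of each list, fixed key genes, the 15 most abundant and the 10 with the largest chi-square. Genes outside this rule were named after their values were seen. Unnamed genes (629) enter only the totals and tests. Some genes that the rule selects are not reported here.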

Additional observations from a re-analysis of the deposited data

How the results depend on the processing

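No comparison between groups was made, and no level has a direction to reverse. The count of genes at 1 FPKM or more (9270) was 9258 to 9272 with a replicate left out, 10349 and 7916 at thresholds of 0.5 and 2 FPKM, and 8477 without genes that overlap on the same strand. TPM, computed from the same counts and lengths, are 4.23 to 4.25 times the FPKM, so 1634 genes were at 100 or more in TPM against 303 in FPKM, and 10 of 69 lists changed their count at 1 by over 1.5 times. The order of genes within a library is the same in both. Another definition of gene length, which could change that order, was not tested. Genes with a spread above counting noise fell from 237 to between 77 and 109 with only 2 libraries compared. The biological coefficient of variation was 2.0 to 2.12% with a replicate left out. The median CV was 2.35% at 10 FPKM or more, 7.12% without a filter and 2.93 to 3.1% over pairs of libraries. With a pseudocount of 0.1 the lowest Pearson's r between libraries was 0.9967. No paired analysis was possible because only 1 group was analysed, so replicate numbers pair nothing. Levels below 0.1 FPKM rest on a few counts.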
